A study of Mus musculus with 2 samples.

Results

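Transcription factor genes that divide the embryonic brain into regions were examined for peaks of the histone variant H2AZ: Emx1, Emx2, Otx1, Otx2, Gbx2, En1, En2, Nr2f1, Nr2f2 and Gsx2. They were chosen by name and are 10 of the 21774 protein-coding genes placed on the chromosomes. Chromatin immunoprecipitation with sequencing (ChIP-seq), in which DNA bound by a protein is pulled down and sequenced, had been made with an antibody against H2AZ on formaldehyde-fixed neural progenitor cells from the brain of C57BL/6 embryos at embryonic day 13, next to an input library of the same cells and stage without antibody. Both groups held 1 library, no other genotype or treatment is given in the labels, and the sources used here do not say how the progenitors were obtained. The values are 1 deposited list of peaks, of which 21546 were used, each with a position and a score by the authors. What the score measures is not named, so it served only to rank and describe peaks. With 1 ChIP library there is no replicate error for any value, read depth is unknown, and no statistical test was made. The main counts stand beside the same counts over all protein-coding genes.

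H2AZ takes the place of histone H2A in some nucleosomes, most often those beside the start of a gene. The 10 genes act in a map of the neural tube. Emx1 and Emx2, homeobox genes, are known for the dorsal telencephalon, which forms the cerebral cortex. Otx1 and Otx2, also homeobox genes, mark forebrain and midbrain, and Otx2 meets Gbx2, a homeobox gene of the anterior hindbrain, at the boundary where the isthmic organizer forms. En1 and En2, the engrailed genes, are expressed on both sides of that boundary. Nr2f1 and Nr2f2 encode orphan nuclear receptors with roles in the areas of the cortex and in interneurons, and Gsx2 is a homeobox gene of the ventral telencephalon. Each is known to be active in a part of the brain only. In a mixed brain sample, fewer cells with H2AZ at a gene and less H2AZ there in each cell cannot be told apart.

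The 10 genes and the 50 kb on either side of each held 19 peaks. A peak lay within 1 kb of a gene end, meaning either end of the gene in the RefSeq table, at 6 of the 10: Emx1, Emx2, Otx1, Gbx2, En2 and Gsx2. The same was true of 55.4% of all protein-coding genes. A peak inside the gene and away from its ends was found at 1 member, Nr2f2, against 13.8% of all protein-coding genes. A further peak in the 50 kb flanks was found at 6 members, against 65.6% of all. Otx2 and En1 had no peak at all in this range, and neither did 23.2% of protein-coding genes. The counts were thus close to the shares over all genes. By score, 5 of the 6 end peaks were below the median of the list, 11.93, and the En2 peak was above it.

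**Figure D1:**
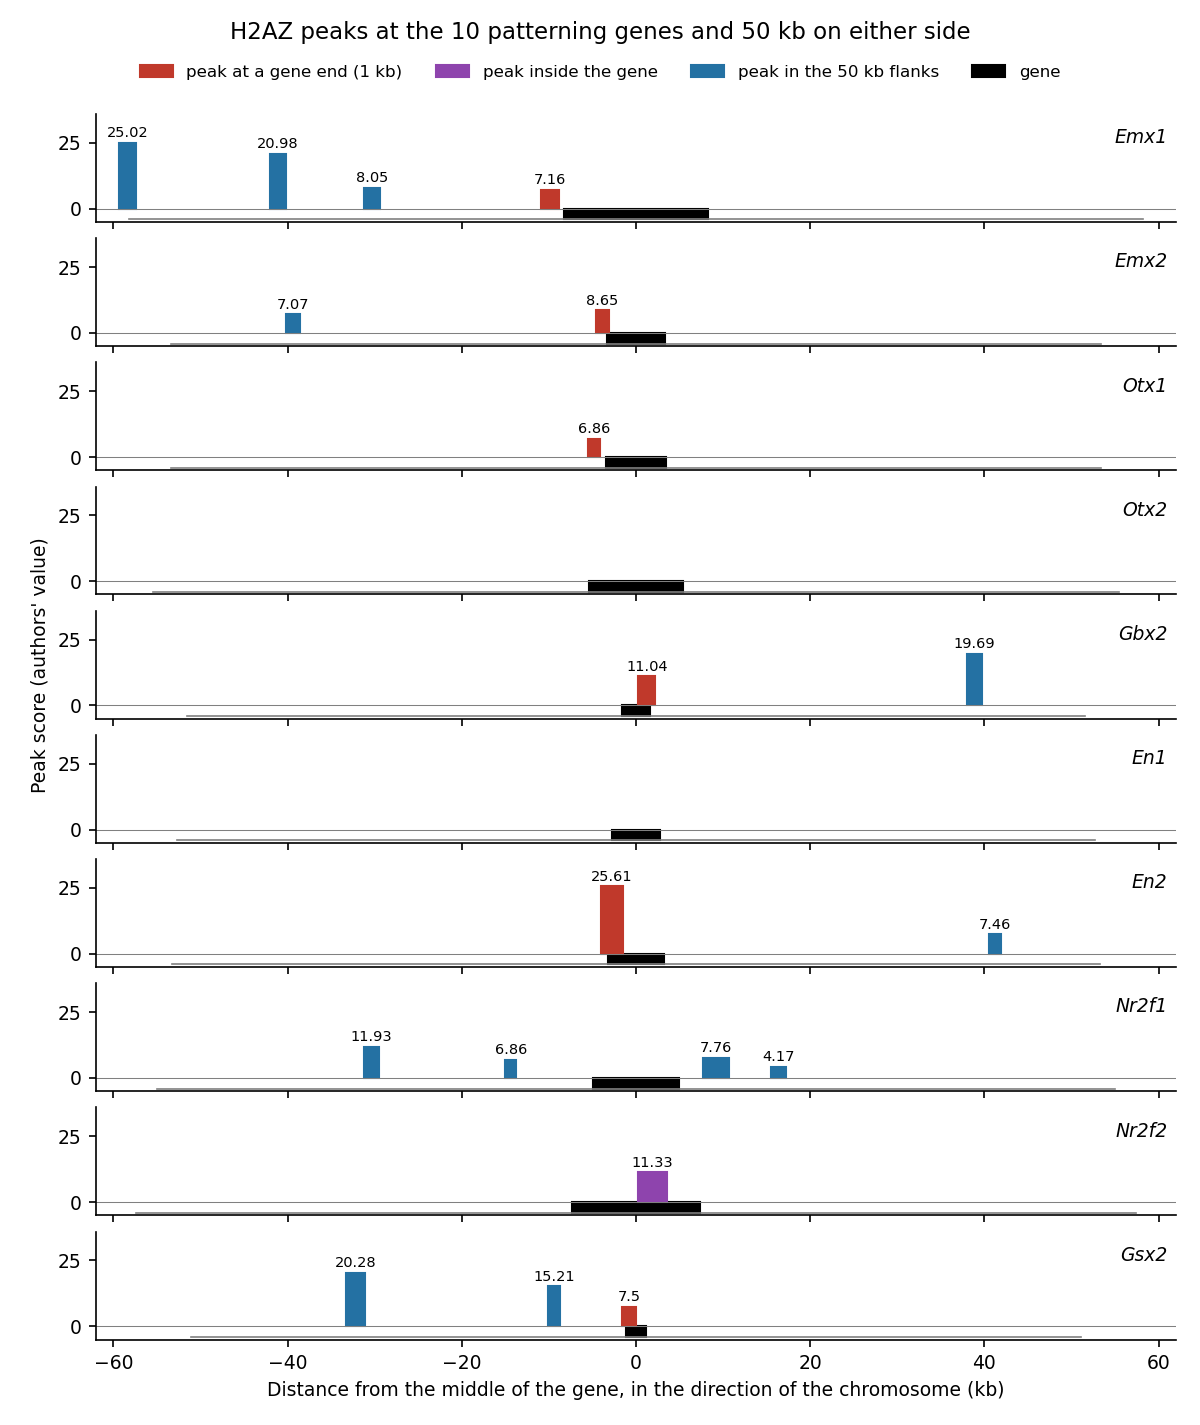
Peaks of the deposited H2AZ list at the 10 genes. Each panel is 1 gene (black box) with the 50 kb on either side (grey line); the horizontal axis is the distance in kb from the middle of the gene, in the direction of the chromosome, and the height of a bar is the authors' score, printed above it. Bars are as wide as the peaks and coloured by their place. The panels of Otx2 and En1 are empty, and En2 has the highest peak, 25.61.

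Because H2AZ peaks cluster at gene starts, the sequence before the start is shown for the members whose start lay under a peak and for members whose start did not. RefSeq promoter entries of GRCm38.p6, a window from 250 bases before to 50 after a listed gene start, matched 8 of the 10 members; Otx1 and En2 had none. Where several starts are listed, the outermost is used. The 250 bases before the start are printed 5′ to 3′ on the strand of the gene, with each CpG dinucleotide in capitals. The start lay under a peak at Emx2 (chr19:59458440-59458689, plus strand), Gbx2 (chr1:89931177-89931426, minus strand) and Gsx2 (chr5:75075351-75075600, plus strand).
Emx2: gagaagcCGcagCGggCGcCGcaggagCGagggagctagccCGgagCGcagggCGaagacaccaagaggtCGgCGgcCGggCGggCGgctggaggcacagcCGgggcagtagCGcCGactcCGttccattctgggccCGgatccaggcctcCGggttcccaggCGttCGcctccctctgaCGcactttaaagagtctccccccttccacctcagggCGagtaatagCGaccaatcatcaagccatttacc
Gbx2: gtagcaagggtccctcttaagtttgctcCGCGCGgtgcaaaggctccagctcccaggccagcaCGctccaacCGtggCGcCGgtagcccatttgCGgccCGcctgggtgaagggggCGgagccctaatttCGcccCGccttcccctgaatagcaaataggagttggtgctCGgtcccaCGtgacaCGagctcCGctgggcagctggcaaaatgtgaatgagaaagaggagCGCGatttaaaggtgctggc
Gsx2: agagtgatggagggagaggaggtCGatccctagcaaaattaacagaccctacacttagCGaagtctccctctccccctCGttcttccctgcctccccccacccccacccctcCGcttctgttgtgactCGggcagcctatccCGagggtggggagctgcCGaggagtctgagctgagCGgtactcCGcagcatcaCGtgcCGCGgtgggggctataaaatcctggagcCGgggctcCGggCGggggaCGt

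The next 4 windows overlapped no peak. They are those of Emx1 (chr6:85187681-85187930, plus strand), the relative of Emx2, of En1 (chr1:120602237-120602486, plus strand) and Otx2 (chr14:48667645-48667894, minus strand), which had no peak in the whole range, and of Nr2f2 (chr7:70366747-70366996, minus strand), whose peak lay inside the gene.
Emx1: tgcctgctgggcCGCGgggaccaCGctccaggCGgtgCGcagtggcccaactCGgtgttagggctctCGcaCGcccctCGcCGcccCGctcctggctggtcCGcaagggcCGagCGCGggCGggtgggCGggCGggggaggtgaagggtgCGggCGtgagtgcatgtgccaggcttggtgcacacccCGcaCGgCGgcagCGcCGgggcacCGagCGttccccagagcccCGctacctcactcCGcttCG
En1: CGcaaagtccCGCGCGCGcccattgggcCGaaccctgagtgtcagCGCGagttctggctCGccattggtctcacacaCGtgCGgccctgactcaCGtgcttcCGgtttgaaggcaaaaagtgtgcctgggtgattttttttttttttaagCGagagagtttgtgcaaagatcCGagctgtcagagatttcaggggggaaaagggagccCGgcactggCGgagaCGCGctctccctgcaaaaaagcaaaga
Otx2: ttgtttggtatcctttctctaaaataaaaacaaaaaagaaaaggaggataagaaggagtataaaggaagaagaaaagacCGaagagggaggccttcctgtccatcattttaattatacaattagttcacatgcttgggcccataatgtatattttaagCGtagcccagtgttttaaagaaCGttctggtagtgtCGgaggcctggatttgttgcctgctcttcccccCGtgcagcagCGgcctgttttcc
Nr2f2: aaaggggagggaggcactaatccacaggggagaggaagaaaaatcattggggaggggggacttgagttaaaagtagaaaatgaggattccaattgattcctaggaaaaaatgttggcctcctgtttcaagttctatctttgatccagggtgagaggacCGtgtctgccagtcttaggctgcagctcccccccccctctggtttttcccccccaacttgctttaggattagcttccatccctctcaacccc

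The promoter sequences read here, at the outermost listed start of each gene, differed widely in CpG content. Emx1 had 30 CpG dinucleotides in the 250 bases, more than 92.9% of the 17486 protein-coding promoters searched, Emx2 had 24 and Nr2f1 had 22. En1 had 19, Gbx2 18 and Gsx2 16, all above the median of 10 over all promoters. Otx2 had 6 and Nr2f2 had 1, with 42.0% and 50.0% of bases G or C, against a median of 55.2%. Otx2 has 4 listed starts, and Nr2f2 has 4 RefSeq transcripts but 1 listed start. These values therefore do not describe every promoter of the 2 genes. Over all promoters, the share that overlapped a peak went from 1.32% of those without CpG to 84.8% of those with 15 to 19, and was 81.6% with 20 or more.

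Members with many CpG dinucleotides were split over whether a peak covered the start. The promoter window overlapped a peak at 3 of 8 members, against 53.1% of protein-coding genes. Of the 6 members with 15 or more CpG, 3 (Emx2, Gbx2 and Gsx2) had a peak over the window and 3 (Emx1, En1 and Nr2f1) did not. Of all 6404 promoters with as many CpG, 82.8% did. In the wider list of patterning transcription factors given further on, 11 of 14 such promoters did. The limit of 15 CpG was set after the values were seen, and with 6 members this is a description only.

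**Figure D2:**
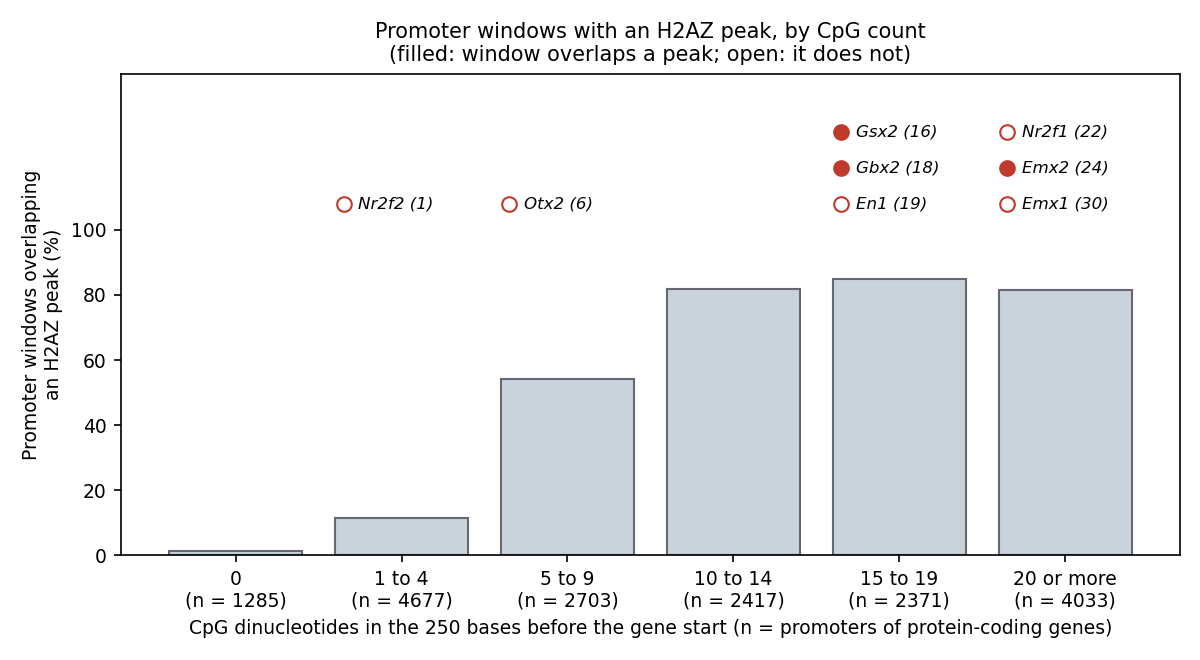
Share of protein-coding promoter windows that overlap an H2AZ peak (bars, vertical axis in percent) by the number of CpG dinucleotides in the 250 bases before the gene start (horizontal axis). Only the outermost listed start of each gene is used. Circles above the bars place the 8 members with a promoter entry, with their CpG count in brackets; filled circles overlap a peak. Emx1, En1 and Nr2f1 are open circles above bars of 84.8% and 81.6%.

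Short motifs were also searched in these 250 bases on both strands. TAATTA, a core bound by many homeodomains, was present in 1 of 8 members, Otx2, and in 4.46% of all promoters. GGATTA, the core bound by Otx proteins, was present in Nr2f2 alone and in 5.95% of all. AGGTCA, an element bound by nuclear receptors, was in none of the 8 and in 12.5% of all. TATAAA, the sequence of the TATA box, was in Otx2 and Gsx2 and in 12.4% of all. It was searched at any distance from the start, so a match is not shown to be a TATA box. TAATTA and GGATTA share their last 4 letters. A match is a description of the sequence only.

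Emx1 and Emx2, the cortical pair, both had an end peak of low score. The Emx2 peak (score 8.65, 1511 bp, chromosome 19 from 59457411 to 59458921) reached over the start of the gene and also over an end of Emx2os, an antisense RNA gene 54 bp away. The Emx1 peak (7.16, 2099 bp, chromosome 6 from 85185312 to 85187410) stopped 520 bp before the start of Emx1, so it did not reach the CpG-rich stretch printed above. It was wider than 88.6% of peaks whose score lay within 1 of its own. The pair differed more in its surroundings. Emx1 had 3 further peaks, all before its start. The strongest (25.02) was 49.1 kb away at a shared end of Spr, which encodes sepiapterin reductase, and the lncRNA gene Gm10444. The next (20.98) was at the pseudogene Spr-ps1, and the nearest of the 3 (8.05) at the lncRNA gene Gm33200. Emx2 had 1 other peak (7.07), 35.2 kb before its start and at no annotated gene end.

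Otx1 and Otx2, the rostral pair, were nearly or entirely bare. Otx1 had a single peak in the range, with the lowest score of the 6 end peaks (6.86, 1403 bp, chromosome 11 from 21992669 to 21994071). It lay outside the gene, 692 bp beyond the end with the lower coordinate. Which end that is was not read here, since Otx1 matched no promoter entry. Otx2 (chromosome 14, 48656781 to 48667644) had none, and none of its 4 listed starts lay under a peak. The nearest listed peaks were 209 kb (score 17.9) and 171 kb (8.35) from the gene, so Otx2 sat in a stretch of 391 kb without a peak. Of all gaps between listed peaks, with a median of 39.1 kb, 94.2% were shorter. The 4718 protein-coding genes with no peak in the range and a listed peak on both sides sat in stretches with a median of 1127 kb. Of these genes, 19.8% sat in a shorter one than Otx2. Peaks are numbered up to 32646 but the deposited list holds 21592. A peak at Otx2 may therefore have been called and not listed. The same holds for En1 and for every other gene or start without a listed peak.

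Gbx2, which faces Otx2 across the midbrain-hindbrain boundary, had a peak over its start (11.04, 1950 bp, chromosome 1 from 89929850 to 89931799), the second-highest end peak of the 10 genes. LOC102637806, a predicted protein-coding gene, has an end within 1 kb of the same peak. A stronger peak (19.69) lay 36.4 kb away, before the start and inside Asb18, a gene of an ankyrin repeat protein, at none of its ends.

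The engrailed genes stood at opposite ends of the range. En2 had the highest peak of all 19 (25.61, 2520 bp, chromosome 5 from 28164927 to 28167446), which spanned 1 end of the gene. It ranked 988 of 21546, above 95.3% of listed peaks, and no other gene end lay within 1 kb. A weaker peak (7.46) lay 37.2 kb beyond the other end, inside Cnpy1, a gene linked to FGF signalling. En1 (chromosome 1, 120602487 to 120607991) had no peak, and its nearest listed peaks were 261 kb (12.83) and 356 kb (7.16) away. The stretch without a peak around En1 was 622 kb long. Of all gaps between listed peaks 96.8% were shorter, and 31.8% of the 4718 genes without a peak sat in a shorter one. With 1 library the difference between En1 and En2 has no replicate check.

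Nr2f1 and Nr2f2, the nuclear receptor pair, had no peak within 1 kb of either end, and the widest peaks of the 10 genes. The Nr2f2 peak lay inside the gene, 5524 bp after the listed start by its midpoint (11.33, 3288 bp, chromosome 7 from 70359579 to 70362866). It was wider than 97.3% of all listed peaks and 96.4% of those of like score. RefSeq gives 4 transcripts for Nr2f2 but only 1 start is among the promoter entries, so another transcript start under the peak could not be looked for. The nearest peak to Nr2f1 began 2.80 kb before its start (7.76, 2887 bp, chromosome 13 from 78201671 to 78204557). It was wider than 97.8% of peaks of like score, whose median width was 1516 bp. A second peak before the start (4.17) was the weakest of the 19, above only 0.0511% of the list. On the other side of Nr2f1 lay peaks of 6.86 and 11.93, 8.77 and 24.5 kb away. All 4 peaks around Nr2f1 were inside lncRNA genes, and the strongest also inside the coding gene Fam172a.

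Gsx2, the ventral telencephalic gene, had a peak over its start (7.5, 1580 bp, chromosome 5 from 75075196 to 75076775). Higher scores were found at some distance before the start. A peak of 15.21 lay 7.62 kb away, at no annotated gene end and inside no annotated gene. At 1334 bp it was narrow for its score: 2.80% of peaks of like score were narrower. A peak of 20.28 lay 30.0 kb away at an end of Chic2.

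**Figure D3:**
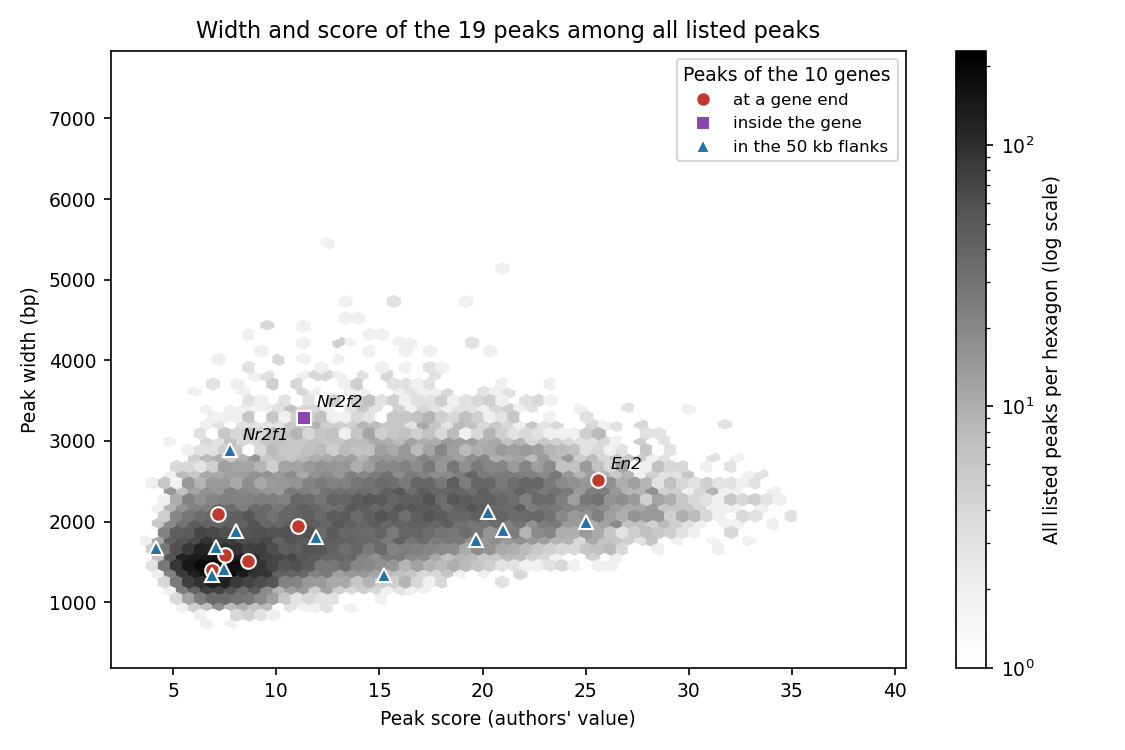
Width in bp (vertical axis) against the authors' score (horizontal axis) for all listed peaks (grey hexagons, shaded by their number on a log scale) and the 19 peaks of the 10 genes (coloured by place). The peaks marked Nr2f1 (2887 bp) and Nr2f2 (3288 bp) lie at the upper edge of the cloud for their scores, and En2 is the highest end peak.

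Of the 19 peaks of the 10 genes 12 were below the list median, which by definition has as many listed peaks below it as above. The median score of the 6 end peaks was 8.07, and the order from low to high was Otx1, Emx1, Gsx2, Emx2, Gbx2 and En2. Over all protein-coding genes with an end peak the median of the highest end peak was 17.1. The first 4 of that order lay within 6.86 to 8.65, and no spread is known that could rank them. Only the En2 peak would remain among peaks at or above the list median, where 44.4% of protein-coding genes have an end peak. The 12 flank peaks had a median score of 9.99. The 2 at an end of another coding gene, Spr and Chic2, scored 25.02 and 20.28, and the 10 others had a median of 7.91.

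Few other coding genes lie around the members. Within 50 kb they had a median of 1 other protein-coding gene and at most 3, against a median of 3 over all protein-coding genes. The other patterning factors, the organizer genes and the progenitor markers each had the same median of 1. The number of peaks in the range was 4 at Emx1 and Nr2f1, 3 at Gsx2, 2 at Emx2, Gbx2 and En2, and 1 at Otx1 and Nr2f2. The median of 2 equalled that over all protein-coding genes. Per 100 kb the members had a median of 1.88 peaks, against 1.57 over all protein-coding genes. It was 1.19 over the 16888 protein-coding genes with at most 4 other coding genes in the range. The count per 100 kb also depends on gene length, and the part played by length was not tested. The count per 100 kb was not computed with flanks of 100 kb. With those flanks the median number of peaks, equal at 50 kb, was lower at the members than over all protein-coding genes. A flank peak was then found at 6 members, against 77.0% of all.

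Of 4 relatives outside the 10 genes, 2 had an end peak, against 55.4% of all protein-coding genes. Both scored above the list median, and 44.4% of all protein-coding genes had an end peak at or above it. Gbx1 had an end peak (13.12) close in score to that of Gbx2. Gsx1, the relative of Gsx2, had no peak within 50 kb, in a stretch of 413 kb without any. Crx, a photoreceptor gene of the Otx family, had no end peak and 1 flank peak (20.28), at an end of Selenow. Nr2f6 had a wide peak over its start (18.4, 3017 bp) and 6 peaks in the range, where it has 6 other coding genes. Nr2f1 and Nr2f2 had 4 and 1 peaks and none over a listed start.

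Other genes of regional patterning were counted by the same rule. Of 36 further patterning transcription factors 22 had an end peak (61.1%, against 55.4% of all protein-coding genes). Their median highest score was 9.04, against 17.1 over all genes with an end peak. Among the highest were Irx3 (15.21), known for the diencephalon and spinal cord, Dlx2 (14.9), a gene of the ventral telencephalon, and Dmrt3 (14.62), a gene of the medial cortex. Dbx1 and Foxa2 were among the first by alphabet without an end peak, and like Otx2 and En1 they had none within 50 kb. Of 18 genes of organizer signals and their feedback 14 had an end peak (77.8%, against the same 55.4%), with a median of 12.7, also below 17.1. Fgf18, an FGF ligand of the isthmus, scored 19.99, the FGF antagonist gene Spry1 18.79, the hem ligand gene Wnt2b 15.31 and Fgf15 15.21. The Fgf15 peak is shared with an end of Gm26793. Bmp4, Wnt1 and Wnt3a had no end peak, though Bmp4 and Wnt3a each held 1 inside the gene. These lists were compared with the 10 genes by counts and medians only.

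**Figure D4:**
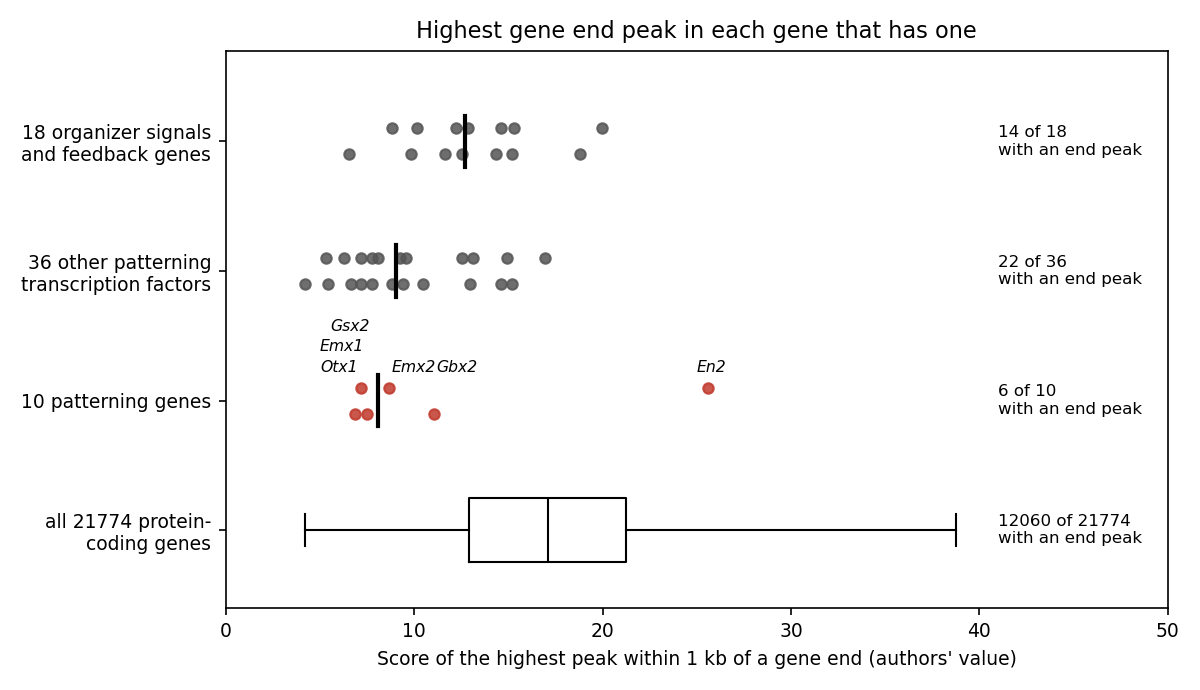
Score of the highest peak within 1 kb of a gene end (horizontal axis, the authors' value) for each gene that has one. Points are genes, the black lines medians; the box for all protein-coding genes spans the quartiles and its whiskers the full range. Of the 6 members, 5 lie below the lower quartile of all genes (12.9) and En2 at 25.61 lies above the upper quartile (21.2).

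By the number of peaks in the range and the highest score there, both as percentiles over all protein-coding genes, the genes of these lists most like the members' medians were Wnt5a, Barhl2 and Six3, each with 2 peaks. Their distances from the members' medians were 1.16, 2.21 and 2.93 percentile points. Their highest scores were 12.23, 10.44 and 10.01, and the members' median, with 0 for the genes without a peak, was 11.6. This likeness covers 2 measures of 1 library.

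Within 10 kb of 7 of the 10 members there were 11 lncRNA or antisense RNA genes, and 31.9% of all protein-coding genes had such a gene that close. Of the 11, 1, Emx2os, had an end peak, which is the peak it shares with Emx2. Over all 12646 such genes 23.6% had one. Otx2os1, 1643 bp from Otx2, Gm34352 at 419 bp from En1 and B130024G19Rik, which overlaps Nr2f2, had no peak at an end or inside. A830082K12Rik, which overlaps the start of Nr2f1, held peaks of 7.76 and 4.17 inside, both counted above for Nr2f1.

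Whether the sample was of neural progenitors cannot be read from peaks, which measure no RNA. For the record, 6 of 7 genes used as progenitor markers had an end peak (Nes, Vim, Hes1, Hes5, Fabp7 and Slc1a3), and Sox2 had none. The share over all protein-coding genes was 55.4%. The median highest end score of these 6 was 11.2, against 17.1 over all genes with an end peak.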

How the data were processed

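The series held 1 H2AZ ChIP and 1 input library. The deposited list gives for each peak a position and a score, the authors' own value, without a header. Peak names carry the caller name MACS, per the deposited file; the sources used here give neither its settings nor whether the input was its control. The submitters' processing notes name CASAVA 1.4, Bowtie2 2, FastQC and the build mm9. Positions were read as GRCm38 and not converted: a protein-coding gene end of the GRCm38.p6 RefSeq table was within 1 kb of 51.6% of peaks, and 8.32 and 8.26% did after a shift of 1000000 bp either way. Of 21592 peaks, 46 listed after those of the Y chromosome were left out, and none of these lay near the 10 genes. Genes on sequences other than the main chromosomes were not used. A further 348 genes carried a main chromosome name but were listed outside its first block in order of position, and were left out too.

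A peak was at an end if it reached to within 1 kb of it, inside if it overlapped the gene but no end, and in a flank if it lay within 50 kb otherwise. Starts are printed counted from 1. Peaks of like score have a score within 1. The rule for named genes took all members, their relatives, from 2 lists the 4 highest and the first 3 by alphabet without an end peak, and the 3 genes most like the members; not all genes it takes are reported. The members and lists were chosen with earlier results of these data known. CpG, motif, gap and non-coding counts were added after the peaks were seen. No statistical test was made. The assignment of peaks to genes was checked on simulated peak lists. Python 3.11.15, numpy 2.4.6, pandas 2.3.3 and matplotlib 3.10.9 were used.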

Additional observations from a re-analysis of the deposited data

How the results depend on the processing

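Of 37 alternative values, 27 stayed within 1.5 times the reported one. With peaks at or above the list median score alone, by construction fewer, an end peak was left at 1 member (44.4% of all protein-coding genes), an interior peak at 0, a median of 0.500 peaks per range (1.00 over all) and a median end score of 25.6 (En2), and end peaks at 7 of the 36 transcription factors and 9 of the 18 signal genes. With end windows of 5 kb the interior count was 0, since the Nr2f2 peak then counts as an end peak, and 8 members had one (60.8% of all). With flanks of 10 kb, 2 members had a flank peak (27.2% of all) and the median was 1.00 peak, as over all. Over the promoter window, added after seeing the data, 3 of 8 members had a peak, against 53.1% of protein-coding genes with such a window. With end windows of 500 bp, 4 members had an end peak (Emx2, Gbx2, En2 and Gsx2), against 54.0% of all protein-coding genes. With peaks assigned by their midpoint, 4 members had an end peak, against 51.1% of all. No paired analysis was possible because each group has 1 library and the list gives no value per library. Read depth is unknown, so a gene without a listed peak is not shown to lack H2AZ.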
